A study of Mus musculus with 2 samples.

Results

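Microsatellites whose tandem unit has 2 to 4 bases were examined for the serine 31 phosphorylated form of the histone H3.3 (H3.3S31ph) in mitotic mouse embryonic stem (ES) cells. Members were the repeat types named by a unit that holds at least 1 G or C and at least 1 A or T and that gives no run of 3 G or 3 C when read in tandem. There were 36 such rows among 952 repeat types, and 29 of them had at least 100 input reads. The H3.3S31ph ChIP group was 1 sample of wild-type ES cells of the strain 129S1/SvImJ, immunoprecipitated with an antibody to H3.3S31ph, and the input group was 1 matched sample sequenced without immunoprecipitation. Both came from cells kept for 12 hours in 9 µM RO-3306, which blocks the kinase CDK1 and so entry into mitosis, then rinsed, with the mitotic cells taken 11 hours after release. Each library was sequenced in 2 lanes as 50 bp single reads. No sample from cells outside mitosis or from cells lacking H3.3 was analysed here, and each group is a single sample from cells at under 20 passages. The tables list repeats and no genes, so the ES cell label could not be checked on markers.

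Microsatellites are short units repeated head to tail, and they change length readily because the strands can slip during DNA replication. Some of them leave the usual double helix: alternating purine and pyrimidine units such as CA can take up the left-handed Z form, tracts with purines on 1 strand can fold into triplexes, and CAG units can form hairpins. H3.3 is the histone H3 variant that is deposited outside of DNA replication. Its serine 31 is absent from the canonical H3 histones and is phosphorylated in mitosis, a mark best known from telomeres and pericentromeric chromatin.

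A row stands for a double-stranded repeat under 1 of its strands, and the names do not repeat a duplex: the 36 rows name 36 duplexes of 37 that the rule allows. The units on which the results turn are shown as 24 bases of the array on the listed strand, 5′ to 3′. G and C are in capitals, since the members are described below in groups by the share of these bases. The units run from the highest to the lowest ratio of ChIP to input, defined below, which is not the order of that share. They were written out from the row names.
(CAGG)n, ratio 1.27: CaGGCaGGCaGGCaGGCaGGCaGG
(CAGT)n, ratio 1.13: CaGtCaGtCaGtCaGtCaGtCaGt
(GGA)n, ratio 1.08: GGaGGaGGaGGaGGaGGaGGaGGa
(CAG)n, ratio 1.05: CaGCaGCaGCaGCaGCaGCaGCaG
(TGAA)n, ratio 0.865: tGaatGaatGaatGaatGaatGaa
(CA)n, ratio 0.835: CaCaCaCaCaCaCaCaCaCaCaCa
(GA)n, ratio 0.813: GaGaGaGaGaGaGaGaGaGaGaGa
(CATG)n, ratio 0.783: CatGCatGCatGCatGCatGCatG
(CATA)n, ratio 0.765: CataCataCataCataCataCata
(TAGA)n, ratio 0.708: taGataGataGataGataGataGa

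Microsatellites as a group were close to the bulk of repeats and slightly depleted against input. They held 204750 ChIP reads and 179034 input reads, which is 1.67% of the 12235477 ChIP repeat reads and 2.02% of the 8856751 input repeat reads. The ratio used throughout divides the share that a row takes of the ChIP reads in the tables by the share it takes of the input reads there, and values in brackets are its 95% interval of counting error. The pooled ratio was 0.828 (0.823 to 0.833), and the median of the 29 members with at least 100 input reads was 0.846, against 0.805 for the median of all 704 repeats with as many reads. Shares sum to a fixed total, and the telomeric row alone took 8.38% of ChIP repeat reads against 0.584% of input repeat reads, so values relative to the median repeat are given as well. There were no biological replicates, so none of the differences below has a replicate check, and no test between groups was possible.

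Ratios of the 29 members ran from 0.708 to 1.27, a 1.79-fold span. An interval above 1 was found for 2 of 29 members, 6.90% of them, against 7.81% of all repeats tested, so this share was near the background. An interval below 1 was found for 18 of 29 members, 62.1%, against 79.5% of all repeats, and for the remaining 9 the interval included 1. Relative to the median repeat, 13 members, 44.8%, had an interval above it against 27.3% of all repeats, and 3 members, 10.3%, had one below it against 19.2%. At least 1.2 times the median repeat was reached by 5 members, 17.2%, against 14.3% of all repeats, and 0 members lay as far below it, against 4.40%. The fold of 1.2 was set after the values had been seen.

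**Figure D1:**
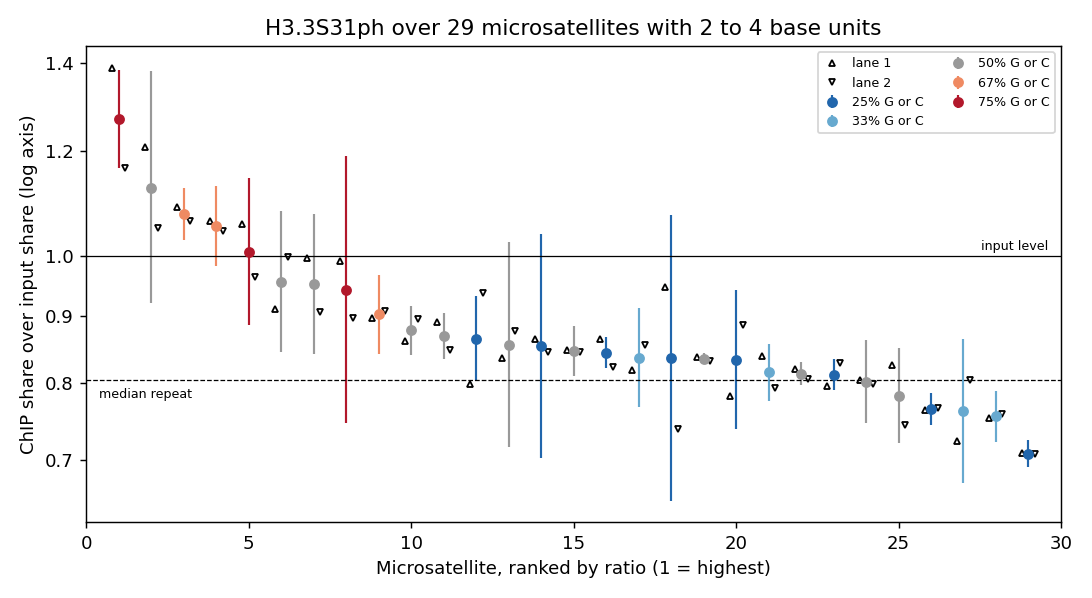
Ratio of the ChIP share to the input share (log axis) for the 29 microsatellites with at least 100 input reads, ranked from the highest (1) to the lowest (29). Filled points are both lanes summed, with 95% counting intervals, coloured by the unit's share of G and C, triangles are single lanes, the solid line is the input level of 1 and the dashed line is the median repeat at 0.805. The points fall to the right from 1.27 to 0.708, and warm colours, for units rich in G and C, gather at the left.

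The highest ratios belonged to units rich in G and C. Among members with 66.7% or 75% G and C, 4 of 6 reached 1.2 times the median repeat, while among members with 25% to 50% it was 1 of 23. Pooled, the units with 66.7% or 75% had a ratio of 1.05 (1.02 to 1.08) and the units with 25% to 50% had 0.818 (0.813 to 0.823). The quotient of these pooled ratios was 1.28 with (CAGG)n and 1.25 (1.21 to 1.29) without it.

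(CAGG)n led the members. It had 760 and 728 ChIP reads in lanes 1 and 2, against 394 and 455 input reads, a ratio of 1.27 (1.17 to 1.38). Both lanes lay above the input level, yet they differed, with ratios of 1.39 in lane 1 and 1.16 in lane 2, which is more than the counting interval of their difference allows. (GGA)n, whose G and A strand pairs with a C and T strand, was better covered, with 2445 and 2347 ChIP reads against 1618 and 1607 input reads. Its ratio of 1.08 (1.03 to 1.13) was the other one with an interval above 1, and its lanes gave 1.09 and 1.06.

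(CAG)n, the trinucleotide known from expansion diseases and read as CTG on its other strand, had 1001 and 953 ChIP reads against 679 and 664 input reads. Its ratio of 1.05 (0.982 to 1.13) was not separable from the input level but lay above the median repeat, at 1.31 times it. (TGG)n had 902 and 928 ChIP reads against 724 and 744 input reads, a ratio of 0.902 (0.842 to 0.967). With the same share of G and C, (GGA)n stood 1.19 times higher than (TGG)n (1.10 to 1.29) and (CAG)n 1.17 times higher (1.06 to 1.29), and both orders held in each lane. (CACG)n, at 1.01 (0.886 to 1.14), and (CAGC)n, at 0.942 (0.747 to 1.19), had intervals that included 1.

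Units with equal parts of G or C and A or T lay around the median repeat or above it. The 11 members with 50% had ratios from 0.783 to 1.13 with a median of 0.856, 7 of them had an interval above the median repeat and 0 had one below it. (CA)n, the most abundant mouse microsatellite of these tables, held 47.5% of the ChIP reads and 47.1% of the input reads of all members. It had 49400 and 47889 ChIP reads in the lanes, against 42427 and 41886 input reads. Its ratio was 0.835 (0.828 to 0.843), with 0.838 in lane 1 and 0.832 in lane 2, and 1.04 times the median repeat. (GA)n had 10119 and 9594 ChIP reads against 8882 and 8660 input reads, a ratio of 0.813 (0.797 to 0.830), which was not separable from the median repeat. Without (CA)n the pooled ratio of the other members was 0.821 (0.814 to 0.828).

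Above these stood (CAGT)n, with 131 and 121 ChIP reads against 78 and 84 input reads. Its ratio of 1.13 (0.921 to 1.38) had an interval above the median repeat but not above 1. (TGAG)n and (CAAG)n followed at 0.955 (0.845 to 1.08) and 0.952 (0.842 to 1.08), on 463 and 467 input reads. (GGAA)n, with 4680 ChIP and 3860 input reads, had 0.878 (0.841 to 0.916), (TGGA)n had 0.869 (0.834 to 0.905) and (CAGA)n had 0.846 (0.811 to 0.884). (TAGG)n had 0.856 (0.716 to 1.02), (CCAA)n 0.802 (0.746 to 0.862) and (CATG)n 0.783 (0.720 to 0.852), and all 3 intervals included the median repeat.

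The lowest ratios were those of units poor in G and C, and 2 abundant tetranucleotides stood out among them. (TAGA)n had 7120 and 6677 ChIP reads against 7243 and 6870 input reads, a ratio of 0.708 (0.691 to 0.725), and the lanes gave 0.708 and 0.707. (CATA)n had 5133 and 4918 ChIP reads against 4841 and 4674 input reads, a ratio of 0.765 (0.743 to 0.786), with 0.763 and 0.766 in the lanes. (GAA)n, the trinucleotide with 1 purine strand, had 2045 and 2012 ChIP reads against 1956 and 1933 input reads, a ratio of 0.755 (0.722 to 0.789). These 3 were the members with an interval below the median repeat, and (TAGA)n lay at 0.879 of it.

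The remaining units with 25% or 33.3% G and C lay near the median repeat. (GAAA)n, with 11411 ChIP and 9789 input reads, had 0.844 (0.821 to 0.867) and was the single one of them with an interval above the median repeat. (CAAA)n had 0.812 (0.790 to 0.835), (CAA)n 0.816 (0.776 to 0.857) and (CAT)n 0.836 (0.767 to 0.912). (TGAA)n had 0.865 (0.803 to 0.932), but its lanes, at 0.799 and 0.937, differed by more than the counting interval of their difference. (CTAA)n, (TAAG)n and (CAAT)n had 0.854, 0.836 and 0.833, and (TAG)n had 0.762 (0.672 to 0.865), each on 503 input reads or fewer.

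The ratio did not climb evenly with the share of G and C. Medians were 0.834 at 25% G and C, 0.789 at 33.3%, 0.856 at 50%, 1.05 at 66.7% and 1.01 at 75%. Pooled ratios were 0.779, 0.787, 0.836, 1.03 and 1.14 in the same order. The value at 75% rested on (CAGG)n, without which it was 0.978 (0.882 to 1.09), and the value at 25% rested on (TAGA)n and (CATA)n, without which it was 0.831 (0.816 to 0.846). Against units with 25% without these 2, the units with 50% stood at 1.01 times (0.986 to 1.03). Spearman's rho of the log2 ratio with G and C content was 0.654 over the 29 members and 0.633 over those 17 that had 1000 or more input reads. This describes repeats that share the same 2 libraries, not replicates. Input abundance moved with the ratio as well, with a rho of -0.442 between the log2 ratio and the number of input reads over the 29 members, and its part in the result was not tested.

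**Figure D2:**
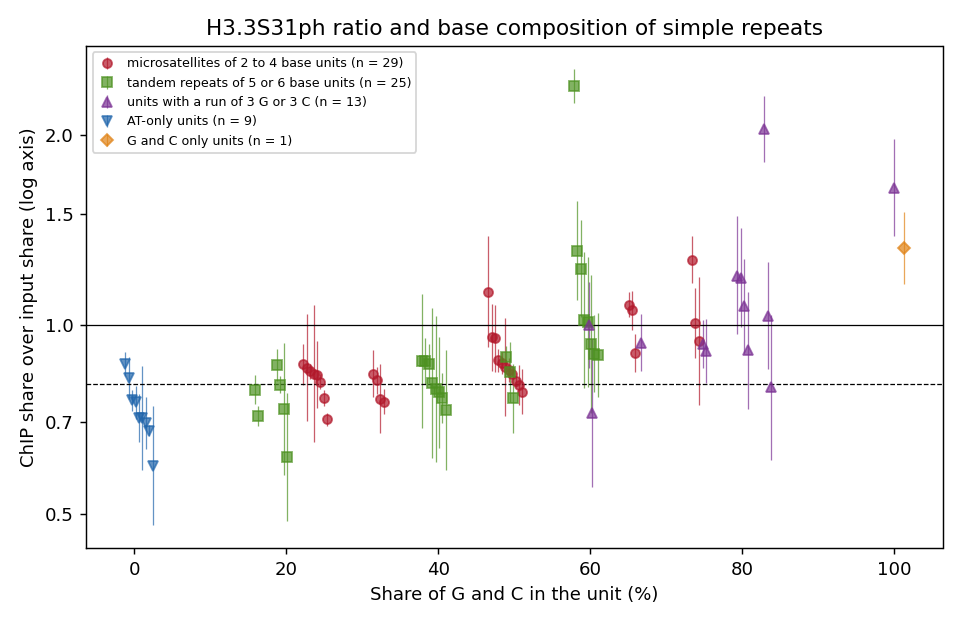
Ratio of the ChIP share to the input share (log axis) against the unit's share of G and C (%) for simple repeats with at least 100 input reads, with 95% counting intervals. Points of 1 kind and 1 share are spread sideways, the solid line is the input level and the dashed line the median repeat. Microsatellites with 25% to 50% lie around the dashed line with medians of 0.789 to 0.856, and those with 66.7% and 75% have medians of 1.05 and 1.01.

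Unit length by itself separated the members little. The median ratio was 0.824 for the 2 units of 2 bases, 0.836 for 7 units of 3 bases and 0.855 for 20 units of 4 bases. The pooled ratios were 0.832 (0.825 to 0.839), 0.888 (0.868 to 0.908) and 0.808 (0.799 to 0.817), so medians and pooled values put the lengths in different orders. (GGA)n gave 4792 of the 17675 ChIP reads of 3 base units, and (TAGA)n gave 13797 of the 70073 ChIP reads of 4 base units. At 50% G and C, which 2 and 4 base units share, the pooled ratio was 0.832 for 2 bases and 0.861 (0.843 to 0.880) for 4 bases. The quotient was 0.966 (0.944 to 0.988). (CA)n gave 97289 of the 117002 ChIP reads of the 2 base units. Of the 18899 ChIP reads of the 4 base units, (TGGA)n, (GGAA)n and (CAGA)n gave 5183, 4680 and 4509. That quotient thus compares a few abundant units and cannot be read as length alone. Within 3 base units the medians at 66.7% and 33.3% G and C were 1.05 and 0.789, and within 4 base units those at 75% and 25% were 1.01 and 0.834.

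CpG, the dinucleotide that carries DNA methylation, was rare among these arrays. Of the 7 members with a CpG, (CACG)n alone had at least 100 input reads, with 279 and 298 ChIP reads against 190 and 225 input reads. The other 6 held few reads: (CGGA)n had 46 ChIP and 30 input reads, (CGAG)n 49 and 40, (CGA)n 44 and 45, (CGAA)n 21 and 21, (CGGT)n 12 and 16, and (CGAT)n 7 and 3. None of their intervals excluded 1, the widest being that of (CGAT)n, 0.386 to 10.1. The single other member under 100 input reads, (CTAG)n, which has no CpG, had 17 ChIP and 13 input reads.

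Pooled, the 7 units with CpG had a ratio of 0.960 (0.860 to 1.07) and the 29 units without it had 0.827 (0.822 to 0.833). The direction was different at a matched share of bases. At 75% G and C, the units with CpG had a pooled ratio of 0.988 (0.879 to 1.11) and those without it, (CAGG)n and (CAGC)n, had 1.22 (1.13 to 1.33), a quotient of 0.807 (0.702 to 0.928). This quotient rests on (CAGG)n, since (CAGC)n alone, at 0.942, lay below the pooled value of the units with CpG. At 66.7% and 50% the quotients were 0.688 (0.454 to 1.04) and 1.01 (0.586 to 1.74), where a difference was not detectable at this depth.

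A purine-only strand did not go with a uniform shift. The 5 units of this kind had ratios of 1.08 for (GGA)n, 0.878 for (GGAA)n, 0.844 for (GAAA)n, 0.813 for (GA)n and 0.755 for (GAA)n, with a median of 0.844, against 0.850 for the 24 other members. Within a share of G and C the direction varied. Pooled ratios of purine-only over mixed units stood at 1.11 (1.08 to 1.14) at 25%, 0.927 (0.873 to 0.984) at 33.3%, 0.985 (0.965 to 1.00) at 50% and 1.11 (1.04 to 1.18) at 66.7%. The purine-only side at 66.7% was (GGA)n alone. It was not separable from (CAG)n, with a quotient of 1.02 (0.940 to 1.11), so that value lay mainly against (TGG)n, at 0.902. The value at 25% rested on (TAGA)n and (CATA)n among the mixed units, without which, a choice made after the values were seen, it was 1.03 (0.992 to 1.07). Among the purine-only units themselves, (GGA)n, with a G in place of 1 A, stood 1.42 times higher than (GAA)n (1.34 to 1.52), and (GGAA)n, at the same share of G, stood 1.08 times higher than (GA)n (1.03 to 1.13). Other listed units differ by a G in place of a C. Of these (GA)n was at 0.974 of (CA)n (0.952 to 0.996) and (GAA)n at 0.926 of (CAA)n (0.866 to 0.989). (GAAA)n was at 1.04 of (CAAA)n (0.9998 to 1.08), an interval that included 1, with 1.09 in lane 1 and 0.993 in lane 2.

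**Figure D3:**
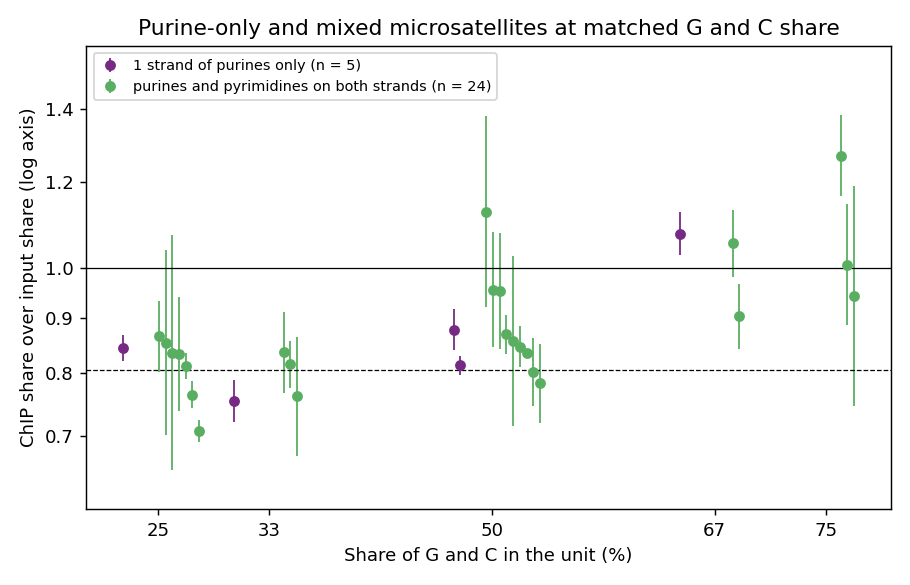
Ratio of the ChIP share to the input share (log axis) for microsatellites with purines only on 1 strand (5 units) and for the other 24, at each G and C content of the unit (%), with 95% counting intervals. Points of 1 share are spread sideways around their tick, the solid line is the input level and the dashed line the median repeat. The purine-only units lie inside the range of the others at 25% and 50%, below it at 33.3% with 0.755, and above it at 66.7% with 1.08. At 33.3% and 66.7% their intervals overlap that of another unit of the same share.

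Some units of identical base composition differed with the order of their bases. Such units formed 7 sets with at least 2 members of 100 or more input reads. (CAGT)n and (CATG)n, which hold each base once, had ratios of 1.13 and 0.783, a quotient of 1.44 (1.16 to 1.78), with 1.46 in lane 1 and 1.41 in lane 2. (TGAA)n, (TAAG)n and (TAGA)n had 0.865, 0.836 and 0.708, and the highest over the lowest was 1.22 (1.13 to 1.32), with 1.13 and 1.32 in the lanes. In the other 5 sets the quotient of the highest and the lowest was 1.07 to 1.12, with intervals that included 1. Since the highest and lowest of a set were picked by their values, these quotients describe the spread and are no test.

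Both low tetranucleotides hold a T followed by an A, and this feature, chosen after the values were seen, was followed over all members. The 6 units with TpA had a median ratio of 0.800 and the 23 without it 0.865. At 25% G and C the pooled ratio was 0.732 (0.719 to 0.745) with TpA and 0.830 (0.815 to 0.846) without it. Without (TAGA)n and (CATA)n, the units with TpA had 0.847 (0.727 to 0.987), so the difference rested on these 2 units. The AT-only (TA)n, outside the members, had a ratio of 0.679, and (TAGA)n stood 1.04 times higher than it (1.01 to 1.08). Likewise, the 5 units that hold CAG or CTG had a median of 1.05 against 0.836 for the 24 others. At 75% G and C their pooled ratio was 1.24 times that of the others (1.08 to 1.42), and at 66.7% it was 1.03 times (0.956 to 1.12). The others at 75% are the units with CpG, so that quotient is the CpG comparison above read the other way. It rests on (CAGG)n, since (CAGC)n, at 0.942, lay below the pooled 0.988 of the others. At 50% the pooled ratio of the units with CAG or CTG was 1.03 times that of the others (0.985 to 1.07). There (CAGA)n gave 4509 of the 4761 ChIP reads of the units with CAG or CTG. (CAGT)n by itself stood 1.35 times higher than the others (1.11 to 1.64), of whose 131140 ChIP reads (CA)n gave 97289. Leaving (CAGA)n out was likewise chosen after the values were seen.

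Other simple repeats flanked the microsatellites by composition. The 9 AT-only units with 100 input reads had a median ratio of 0.712, 9 of 9 with an interval below 1, and the microsatellites pooled stood 1.15 times higher than they did (1.13 to 1.16). The 13 units with a run of 3 G or 3 C, the telomeric row left out, had a median of 0.998 and a pooled ratio of 1.09, of which the microsatellites had 0.760 (0.731 to 0.790). The 25 units of 5 or 6 bases had a median of 0.863, and their pooled ratio was 0.885, of which the microsatellites had 0.936 (0.921 to 0.951). Without (CACAG)n, which had a ratio of 2.39, the pooled ratio was 0.821, and the microsatellites stood at 1.01 times it (0.992 to 1.03). Leaving (CACAG)n out was a choice made with the values known. Spearman's rho of the log2 ratio with G and C content was 0.805 over these 25 units, so that relation was not particular to the microsatellites. The low-complexity rows outside the tandem arrays lay in the same order, with 1.31 (1.24 to 1.40) for GC_rich and 0.699 (0.691 to 0.707) for AT_rich.

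The lanes, which are runs of the same libraries, gave like values where reads were many. Over the 17 members with 1000 or more input reads, the log2 ratios of lane 1 and lane 2 lay a median of 0.025 and at most 0.23 apart, and over all 29 they lay a median of 0.068 and at most 0.36 apart, the widest gap being that of (TAAG)n. Both lanes lay below the input level for 24 of 29 members and above it for 4. The like counts over all repeats are not given here, so these describe the lanes and not a trait of microsatellites. Only (CAGG)n and (TGAA)n had lanes farther apart than the 95% counting interval of their difference. Over 29 such intervals, counting error alone can give some cases of this kind. In the authors' deposited table, the conservative log2 value was above 0 for 5 of the 36 members in lane 1, 13.9%, and 3 in lane 2, 8.33%, against 13.3% and 12.9% of all 952 repeats. It was below 0 for 9 members in lane 1, 25%, and 11 in lane 2, 30.6%, against 40.8% and 40.2% of all repeats. That table uses its own scale, on which (CAGG)n has log2 ratios of 0.64 and 0.39 in the lanes and (TAGA)n has -0.33 in both. Its conservative value for (CAG)n was above 0 in both lanes, at 0.14 and 0.11. Those of (CAGT)n and (CACG)n were above 0 in lane 1 only, at 0.105 and 0.026. On the ratio used here the intervals of these units included 1.

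**Figure D4:**
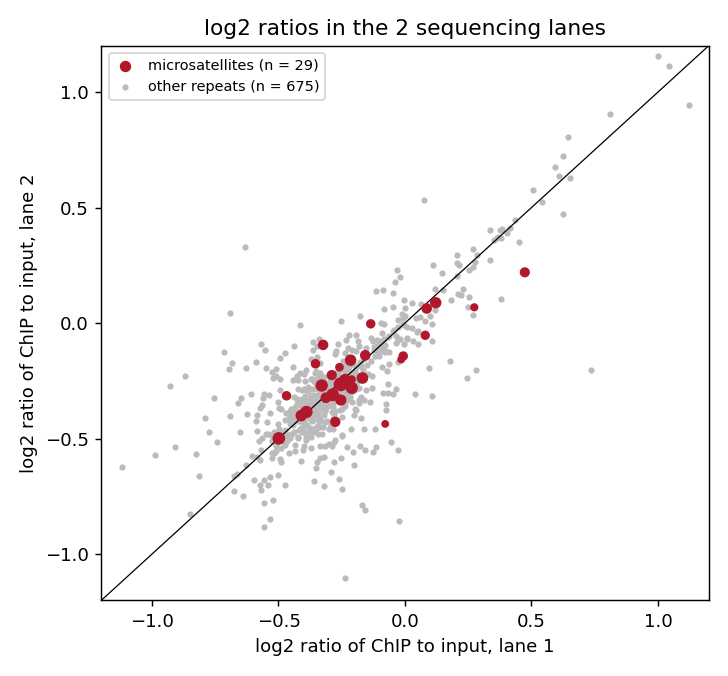
log2 ratio of ChIP to input in lane 1 and lane 2 for 29 microsatellites (dark points, larger with more input reads) and 675 other repeats (grey) with at least 100 input reads. The line marks equal values, and 6 other repeats lie outside the axes. The microsatellites with most reads lie close to the line. Of these (CA)n and (GA)n are near the centre of the grey cloud, and (TAGA)n is lower, at -0.50 in both lanes. The microsatellite farthest to the upper right is (CAGG)n, at 0.47 and 0.22.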

How the data were processed

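Per the labels' protocols, chromatin was fixed with 0.4% formaldehyde for 10 min, sheared to about 300 bp and precipitated with 10 µg of antibody, and 20 ng of DNA went into each library with 10 cycles of amplification. Per the submitters' processing notes, Bowtie 1.0.0 and the build mm9 were used. The sources used here do not say how reads were given to repeat types or how duplicates were handled. The tables deposited by the authors hold raw read counts per repeat type, with 6204712 and 6030765 ChIP reads and 4467116 and 4389635 input reads in lanes 1 and 2. They also hold the authors' deposited log2 ratios with bounds, used only where named. Rows are repeat types, so no coordinates apply.

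Lanes were summed, and each ratio was taken over table totals, since the tables give no library totals. Intervals of ratios are 95% exact conditional (Clopper-Pearson) intervals, and those of quotients of ratios are Wald intervals on the log scale. They cover counting error only and take reads as independent. Reads without molecular identifiers are not independent molecules, so the intervals can be too narrow. A minimum of 100 input reads was set for medians and counts, while pooled ratios hold all members. The members, lists and groupings were chosen with earlier results of these data known. Named were all members, those under 100 input reads by their counts. With 1 sample a group no test was made. The rule was read as barring GGG or CCC. A wider reading, which bars any 3 adjacent letters that are each G or C, was an alternative. Under it 6 members drop out, which are (CAGG)n and all other units with 75% G and C. Other alternatives were single lanes, 3 other scales, other minimums, added reads and summed strands. The computation was tested on simulated counts. Python 3.11.15, numpy 2.4.6, scipy 1.17.1, pandas 2.3.3 and matplotlib 3.10.9 were used.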

Additional observations from a re-analysis of the deposited data

How the results depend on the processing

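The scale between the libraries adds 1 constant to every log2 ratio and leaves differences between microsatellites as they are. The constant was 0.31 with the median repeat set to 1, 0.20 without the 5 most abundant repeats and 0.17 with the constants of the deposited log2 values. The median log2 ratio of microsatellites, -0.24 as reported, became 0.073, -0.038 and -0.072 in the same order. Intervals above 1 numbered 2 as reported, and 13, 5 and 4 under these scales. They numbered 1 in lane 2, 1 with at least 1000 input reads and 1 under the wider reading of the run rule. Intervals below 1 numbered 18 as reported, 3 with the median repeat set to 1 and 11 without the 5 most abundant repeats. On the scale of the median repeat the shares were 44.8% above and 10.3% below, against 27.3% and 19.2% of all repeats. For the other settings the shares over all repeats are not given here, so those counts are no result about the microsatellites. With the median repeat set to 1, 18 negative log2 ratios turned positive. For 12 of these the interval had been below 1: (TGG)n 0.16, (GGAA)n 0.12, (TGGA)n 0.11, (TGAA)n 0.10, (CAGA)n 0.073, (GAAA)n 0.068, (CAT)n 0.055, (CA)n 0.053, (CAAT)n 0.050, (CAA)n 0.019, (GA)n 0.015 and (CAAA)n 0.013. For the other 6 it had included 1: (TGAG)n 0.25, (CAAG)n 0.24, (CAGC)n 0.23, (TAGG)n 0.089, (CTAA)n 0.085 and (TAAG)n 0.054. Without the 5 most abundant repeats 5 turned positive, (GGAA)n with 0.014, (TGG)n 0.054, (TGAG)n 0.14, (CAAG)n 0.13 and (CAGC)n 0.12. On the deposited scale 4 did, (TGG)n with 0.020, (TGAG)n 0.10, (CAAG)n 0.097 and (CAGC)n 0.082. In lane 2 (CACG)n turned negative, -0.053.

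Spearman's rho with the share of G and C, 0.654 as reported, was 0.445 with no minimum of reads and 0.550 under the wider reading. The wider reading leaves out (CAGG)n, the highest member, and all other units with 75% G and C. The difference of median log2 ratios between units with and without CpG, 0.25, became 0.067 with no minimum, when 6 further units with CpG and few reads joined. The difference between 3 and 4 base units, -0.032, became 0.12 with at least 1000 input reads. The difference between 75% and 25% G and C, 0.27, was 0.41 in lane 1, and that between 66.7% and 33.3%, 0.42, was 0.31 with no minimum. No value of the CpG or of the 75% against 25% difference could be had with at least 1000 input reads or under the wider reading. The difference between purine-only and mixed units, -0.011, ran from -0.049 in lane 2 to 0.032 with at least 1000 input reads. No 2 members were strands of the same duplex, so summing strands changed no value. Depth limits the units with CpG, which have 570 input reads in all. No paired analysis was possible because each group has 1 sample.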
